A study of Homo sapiens with 63 samples.

Results

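Fractions 13 to 17 of a polysome gradient from serum-starved HEK293 cells, a human embryonic kidney cell line, were compared with fractions 13 to 17 of a gradient from the same line in log phase growth. The columns were chosen by fraction number and condition alone, which gave 10 of the 63 samples of the series, 5 without serum and 5 in log phase. Serum-starved cells were kept for 2 h in medium lacking fetal bovine serum, and log phase cells stayed in DMEM with 10% serum. All cells, controls included, received cycloheximide for 10 min before harvest, and the lysis buffer held it too. Poly(A) RNA of each numbered fraction was sequenced as stranded libraries. Each condition was run on 1 gradient only, so differences rest on a single preparation of each kind and carry no p-value. The spread given with a value is the SD over the 5 fractions of a gradient pair, which are neighbours in 1 tube and not replicates. Whether low or high numbers are the heavier end is not stated in the labels, and positions are given by fraction number.

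A polysome gradient separates mRNAs by the number of ribosomes and other particles bound to them, and cycloheximide holds elongating ribosomes on the mRNA during lysis. Messages for ribosomal proteins and many translation factors begin with a 5' terminal oligopyrimidine (TOP) tract, a C followed by a run of pyrimidines. Their loading onto ribosomes is known to depend on the growth factor-responsive kinase complex mTORC1 and on the TOP-binding protein LARP1. Serum also carries bone morphogenetic proteins and lipids that drive transcription of the ID genes, which encode inhibitors of basic helix-loop-helix factors, and of targets of the YAP coactivator.

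The start-site windows below show the TOP tracts of messages whose slope across the fractions differed most between the gradients, or that are long known members of the class, and for contrast the starts of 5 genes outside the class. Each window holds 15 bases before and 15 bases from a RefSeq transcription start on GRCh38.p14, in the direction of transcription. Capitals mark the unbroken pyrimidine run that begins at that start. For NPM1 and GAPDH the start used lies inside the gene, whose RefSeq span begins upstream, at chr5:171387116 for NPM1 and chr12:6534517 for GAPDH. The start of RPL3 gives a run of 4 pyrimidines and that of ACTG1 a run of 3. No run begins at the starts used for GAPDH, GRN, ID1 and HNRNPD.
EEF1A1 (chr6:73521018-73521047, minus strand): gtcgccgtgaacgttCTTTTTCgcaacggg
EEF2 (chr19:3985449-3985478, minus strand): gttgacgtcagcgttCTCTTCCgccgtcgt
RPS6 (chr9:19380222-19380251, minus strand): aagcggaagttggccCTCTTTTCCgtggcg
RPS3A (chr4:151099613-151099642, plus strand): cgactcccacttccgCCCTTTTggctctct
RPL14 (chr3:40457324-40457353, plus strand): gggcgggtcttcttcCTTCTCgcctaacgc
NPM1 (chr5:171387834-171387863, plus strand): cggggagcctgcgtcCTTTCCCTggtgtga
TPT1 (chr13:45341169-45341198, minus strand): agcggctgagtcggcCTTTTCCgcccgctc
RPL3 (chr22:39319609-39319638, minus strand): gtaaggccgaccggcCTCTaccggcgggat
ACTG1 (chr17:81512785-81512814, minus strand): gaggccgcggtcggtCTCagtcgccgctgc
GAPDH (chr12:6535249-6535278, plus strand): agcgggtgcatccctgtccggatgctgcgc
GRN (chr17:44345287-44345316, plus strand): gagcgctacccggttgctgctgcccaagga
ID1 (chr20:31605274-31605303, plus strand): tggctccgcactctcattccacgttcttaa
HNRNPD (chr4:82373977-82374006, minus strand): acgcgccgttcttccgtcggccattttagg

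Values are the deposited signal after the spike-in rows were dropped and each column was rescaled to sum to 1000000 units, so each is a share of the summed gene signal of its own fraction. A difference is log2(value + 1) in a serum-starved fraction minus that in the log phase fraction of the same number. The table held 11074 genes, and the 6126 with a mean of 10 units or more over the 10 columns were compared. Before rescaling, the columns summed to between 5065010 and 13368100 without serum and between 11270500 and 55162400 in log phase, and the ratio of same-numbered totals lay between 0.186 and 0.449. How the authors scaled each fraction is unknown here, and fewer cells in a lysate and less RNA per cell cannot be told apart. A luciferase spike-in row stood at 0.481 to 0.875% of the summed gene signal without serum and at 0.254 to 0.562% in log phase. Each serum-starved fraction correlated best over the genes compared with the log phase fraction of its own number, with r between 0.932 and 0.943. Of 10 markers of the line, 9 were in the table, summing to 929 to 1612 units without serum and 342 to 651 in log phase. Blood, liver, fibroblast and endothelial markers gave 1 row among 17, hemoglobin HBA1, at 3.41 units or less.

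Over the genes compared, the median difference was -0.04, and the central 90% of genes lay between -0.88 and 0.93. A gene was called higher or lower when its mean difference reached 1, either way, and all 5 fractions had the same sign. By that rule 263 genes were higher without serum, 4.29% of those compared, and 187 were lower, 3.05%. For 456 genes, 7.44%, every serum-starved value lay above every log phase value, and for 352, 5.75%, every one lay below. Of the 263 higher genes 219 had such separate ranges, as did 110 of the 187 lower genes. Fraction 17 held down the lower count, which was 290 without it. The median gene moved with the fraction number too, from -0.27 in fraction 13 through -0.08, -0.09 and 0.06 to 0.24 in fraction 17. The signal as deposited carries the lower serum-starved totals: on that scale the median gene was at -1.82, no gene was higher and 5747 were lower, so all directions here are relative to the rest of the fraction.

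Ribosomal protein mRNAs differed between the gradients in slope across the block, while their mean differences lay near those of all genes. The slope is the least squares change of log2(value + 1) per fraction from 13 to 17. For the median gene it was 0.17 without serum and 0.06 in log phase. For the 51 large-subunit ribosomal protein mRNAs the median slope was -0.11 without serum and 0.04 in log phase, for the 33 of the small subunit it was -0.15 without serum and -0.01 in log phase, and for 26 other TOP mRNAs it was -0.09 without serum and 0.20 in log phase. In these rescaled shares the slope of these messages was lower without serum, while that of the median gene was higher. A scale put on a whole column moves every gene alike, so the contrast with the median gene hardly depends on it. Each direction taken alone does depend on it. Column totals, serum starved over log phase, stood at 0.449, 0.332, 0.202, 0.186 and 0.279 in fractions 13 to 17. That ratio enters every slope on the deposited scale, where the median gene need not keep its direction.

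Among all genes, 289 or 4.72% had a slope change at least 0.25 below that of the median gene, and 246 or 4.02% had one at least 0.25 above it. In the TOP lists the first group held 26 of 51 large-subunit mRNAs, 16 of 33 small-subunit mRNAs and 17 of 26 others, 59 of 110 in all, and the second group held 0 of the 110. The count over the 110 mRNAs stayed between 52 and 62 with other pseudocounts, filters, scalings and with each fraction left out. Not all of these settings could have moved it. A scaling shifts every gene of a column alike and so hardly changes a slope relative to the median gene. Leaving out the middle fraction cannot change a slope at all. The 0.25 rule was added after the slopes had been seen. The mean differences of the ribosomal lists stood close to the -0.04 of all genes, with medians of 0.01 for the large subunit and -0.08 for the small subunit. The other TOP mRNAs had a median of 0.27, and 18 of the 26 were above 0. The ribosomal medians by fraction crossed 0 inside the block: the large subunit lay at 0.18, 0.10, 0.10, -0.07 and -0.29 from fraction 13 to 17, and the small subunit at 0.14, -0.02, -0.07, -0.29 and -0.42. Ribosomal and TOP mRNAs together made up 56.6% of the summed gene signal in fraction 13 without serum, against 48.7% in log phase, and 37.0% in fraction 17 without serum, against 45.8% in log phase.

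**Figure D1:**
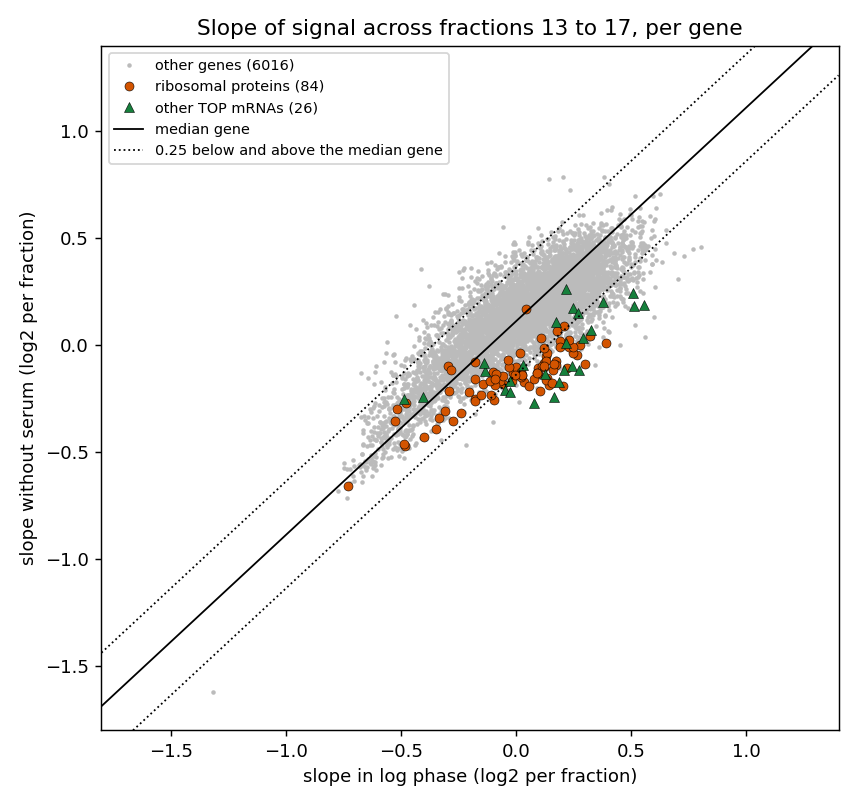
Each point is a gene, with its slope in log phase on the x axis and its slope without serum on the y axis, both in log2 units per fraction over fractions 13 to 17. The solid line marks the slope change of the median gene and the dotted lines lie 0.25 to either side. Of the 110 ribosomal and TOP mRNAs, 59 lie under the lower dotted line, and none above the upper one.

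EEF1A1, which delivers aminoacyl-tRNAs to the ribosome and had the highest signal of the 26 other TOP mRNAs, stood at 24137, 19506, 14372, 14263 and 12189 units in serum-starved fractions 13 to 17, against 8329, 9854, 10226, 11603 and 13533 in log phase. It declined over the block without serum and climbed over it in log phase, and the curves crossed between fractions 16 and 17. Its slope was -0.24 without serum and 0.16 in log phase, a change of -0.52 relative to the median gene.

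RPS6, a small-subunit protein phosphorylated downstream of mTORC1, had 4313, 3391, 3220, 2721 and 2623 units without serum, against 2032, 1976, 2256, 2412 and 3176 in log phase. It was above log phase in 4 fractions and below it in fraction 17. RPS3A, another small-subunit protein, had 7563, 6546, 6420, 5288 and 4326 units without serum, against 4711, 4723, 5908, 6622 and 8091 in log phase, and its mean difference of 0.01 hid a crossing between fractions 15 and 16. RPL14 of the large subunit lay flat at 13848 to 14434 units without serum, while in log phase it stood at 4652, 5240, 6953, 9063 and 13680. All 5 serum-starved values lay above all log phase values, yet the gap had nearly closed by fraction 17.

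Of the 6 subunits of the initiation factor eIF3 in the TOP list, 3 had a slope change past the rule, EIF3E at -0.47 relative to the median gene, EIF3L at -0.46 and EIF3H at -0.45. The other subunits, EIF3K (-0.18), EIF3F (-0.10) and EIF3A (-0.07), stayed within it. NPM1, a nucleolar chaperone of ribosome assembly, had 1194, 1788, 1779, 2229 and 2057 units without serum, against 895, 1497, 2295, 3227 and 4192 in log phase. It still climbed without serum, at 0.19 per fraction against 0.56 in log phase. PABPC1, the poly(A)-binding protein, had slopes of 0.18 without serum and 0.51 in log phase, and TPT1, a growth-related protein with a TOP tract, had -0.12 without serum and 0.21 in log phase.

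Not every ribosomal mRNA tilted. RPL41, which encodes the smallest ribosomal protein, had 13198, 5728, 4515, 2632 and 1993 units without serum, against 12491, 5107, 3189, 2019 and 1586 in log phase. Its steep decline was shared by both gradients, with slopes of -0.66 without serum and -0.73 in log phase. RPL29, RPL7 and RPL23A had slope changes of 0.11, 0.09 and 0.06 relative to the median gene, and all had negative slopes in log phase. The paralogs RPL26L1, RPL39L and RPS27L, at 0.01, -0.03 and -0.01, stood at the median gene. These 6 genes were chosen after their values were seen, and reads of near-identical ribosomal protein copies and pseudogenes can be split between rows.

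The start sequence shared by these messages was counted over all genes with a RefSeq start window. A C at the start followed by pyrimidines, with a run of at least 5 C or T in all on the transcribed strand, was found for 58 of 85 ribosomal and TOP mRNAs, or 68.2%. It was found for 362 of 5216 genes compared, or 6.94%, and for 1104 of all 27305 promoter entries of the reference, or 4.04%. Among genes whose slope fell by the 0.25 rule, 32 of 44 inside the lists carried it (72.7%) and 27 of 212 outside them (12.7%). Among genes past the size rule, 22 of 213 higher genes (10.3%) and 4 of 158 lower genes (2.53%) did. A match describes the annotated start only, which need not be the start used in these cells.

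Of the 26 TOP mRNAs outside the ribosome, 5 were higher over the whole block, against 4.29% of all genes. The ribosomal lists did not exceed that share, with 2 of the 51 of the large subunit and 0 of the 33 of the small subunit. EEF2, the translocation factor of elongation, had 2252, 1979, 1530, 2094 and 2270 units without serum, against 583, 647, 733, 1061 and 973 in log phase, a difference of 1.36 ± 0.41 (SD over 5 fractions). Past the size rule were also IMPDH2 (2.44), which makes guanine nucleotides, the intermediate filament gene VIM (2.41), RACK1 (1.23), a ribosome-bound scaffold, EEF1D (1.19), RPL8 (1.05) and RPL3 (1.03). NAP1L1, a histone chaperone, was the only member of these 3 lists past the rule as lower, at -1.05.

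**Figure D2:**
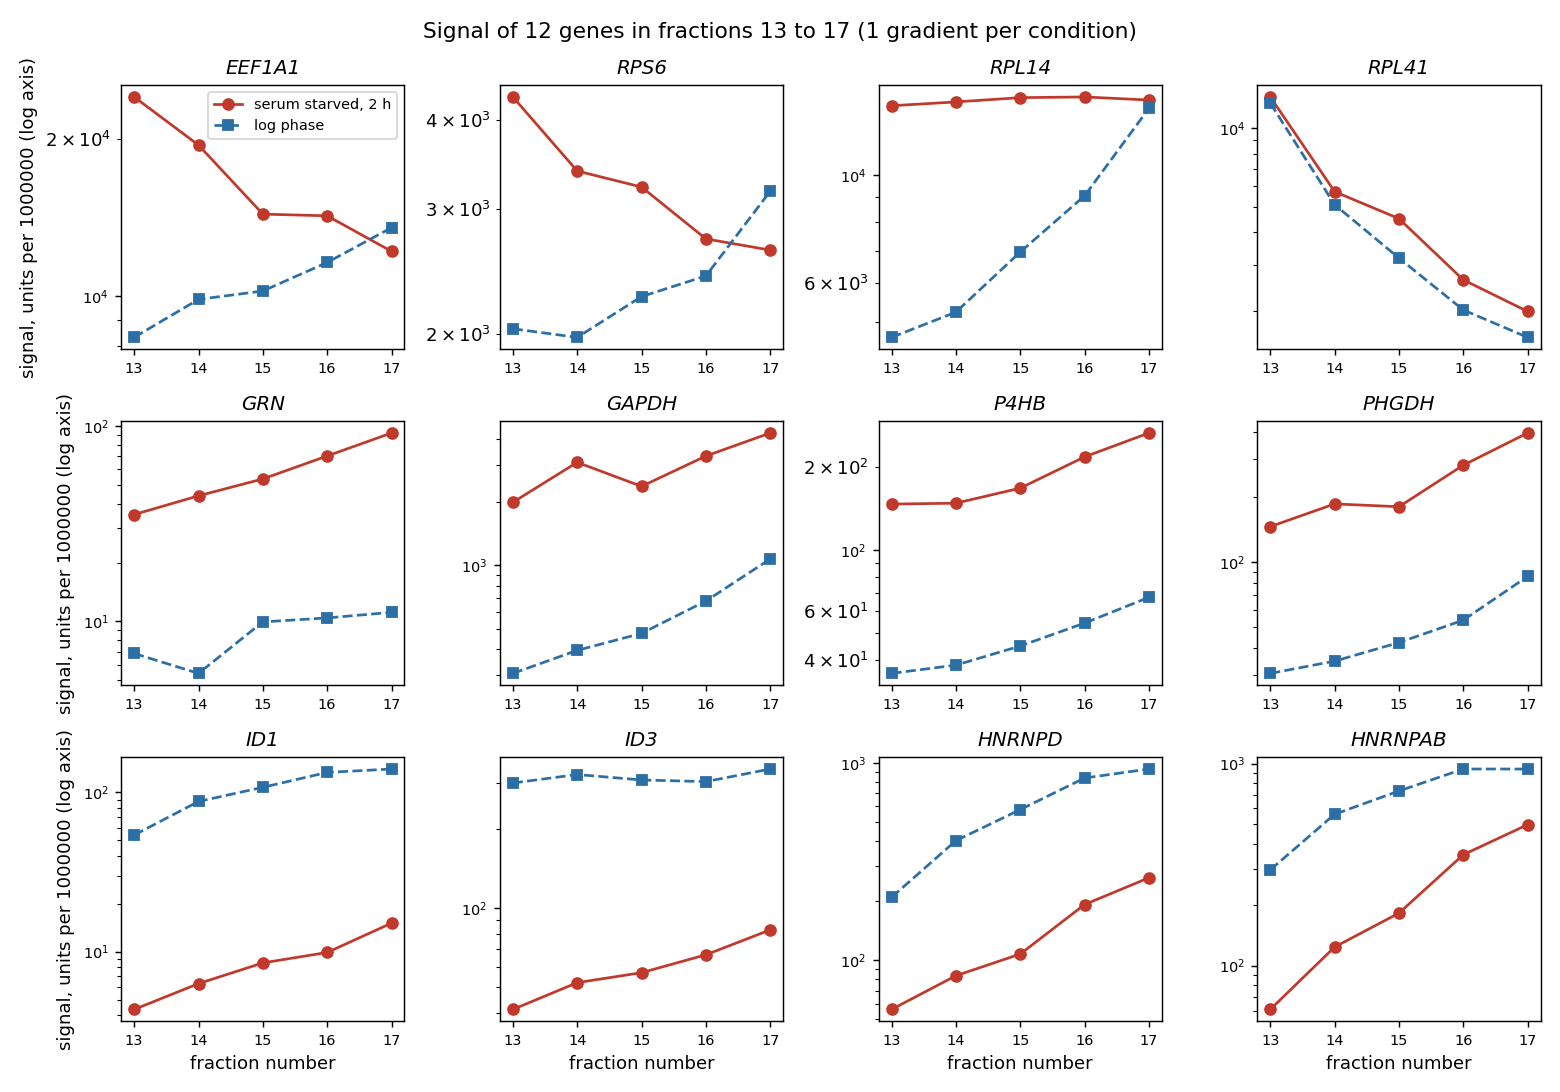
Signal on log axes, in units of which each fraction holds 1000000, for 12 genes in fractions 13 to 17, with serum-starved fractions as red circles and solid lines and log phase fractions as blue squares and dashed lines. EEF1A1 and RPS6 cross, RPL41 runs nearly parallel, GRN, GAPDH, P4HB and PHGDH lie above log phase in all 5 fractions, and ID1, ID3, HNRNPD and HNRNPAB lie below it in all 5.

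Slope changes were not confined to the TOP class. Of 21 hnRNP mRNAs, 8 had a slope change at least 0.25 below the median gene, with HNRNPA1, also in the TOP list, among them. So did 7 of 29 actin and tubulin mRNAs, 6 of 19 heat shock chaperones and 5 of 14 glycolytic enzymes, against the 4.72% of all genes. Among genes averaging 20 units or more, LUC7L3, a splicing factor, fell most, by 0.64 relative to the median gene, followed by the cytoplasmic actin ACTG1, the phosphatase PDXP, the tubulin TUBB2B and ZNF207, a kinetochore-binding zinc finger protein, all chosen after their slopes had been seen. ACTG1 had 1212, 1481, 1233, 1600 and 1839 units without serum, against 307, 496, 644, 1055 and 1687 in log phase.

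The opposite change was largest for NUBP1, an iron-sulfur cluster assembly factor, which had 28.7, 36.2, 48.3, 63.6 and 76.9 units without serum, against 96.4, 71.9, 53.3, 41.6 and 29.3 in log phase. It climbed through the block without serum and declined through it in log phase, with slopes of 0.36 without serum and -0.41 in log phase. OTUB1, a deubiquitinase, had slopes of 0.14 without serum and -0.52 in log phase, and MAP2K3, a kinase of the p38 pathway, had 0.28 without serum and -0.38 in log phase. MLF2, the phospholipid transfer protein PITPNA and CDIP1 came next, with changes of 0.52, 0.50 and 0.48 relative to the median gene. The mean differences of these 6 genes lay between -0.99 and 0.62, and none was past the size rule. They were chosen after their slopes had been seen.

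The 10 largest differences with a mean of 20 units or more belonged to GRN (2.58), GAPDH (2.45), IMPDH2 (2.44), VIM (2.41), ALDH2 (2.30), EIF3CL (2.29), IDH2 (2.28), PHGDH (2.25), PSAP (2.23) and HLA-C (2.05). Every one of them had separate ranges in the gradients. GRN, the precursor of the lysosomal granulins, had 35.2, 44.0, 53.6, 70.3 and 92.2 units without serum, against 6.85, 5.41, 9.94, 10.4 and 11.1 in log phase, a difference of 2.58 ± 0.31 (SD over 5 fractions) or 6.00-fold. GAPDH, a glycolytic enzyme, had 1999, 3096, 2379, 3317 and 4270 units without serum, against 307, 395, 476, 678 and 1074 in log phase. PHGDH, the first enzyme of serine synthesis, had 145, 185, 180, 280.0 and 395 units without serum, against 30.4, 34.6, 42.2, 53.6 and 85.5 in log phase.

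EIF3CL is a near copy of EIF3C, a core subunit of eIF3, and reads of the pair can be split between the rows. EIF3CL had 41.7, 68.8, 43.0, 24.8 and 65.3 units without serum, against 7.14, 6.93, 3.32, 20.4 and 12.2 in log phase, with an SD of 1.22 over the fractions. EIF3C itself was steadier, at 1.72 ± 0.20 (SD over 5 fractions). GAPDH has many processed pseudogenes, and its share is uncertain for the same reason.

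Of 31 autophagy and lysosome mRNAs compared, 7 were higher and 0 lower, against 4.29% higher and 3.05% lower among all genes. The list median was 0.21, against -0.04 for all genes. Among the higher members were GRN, PSAP (2.23, the precursor of sphingolipid activators), HEXA (1.94), a lysosomal hydrolase, CTSZ (1.59) and CTSD (1.32), both cathepsins, and GUSB (1.11), the lysosomal glucuronidase. These 6 encode proteins of the lysosome itself. ATG3, an autophagy enzyme, was the lowest member of the list at -0.63.

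Of 22 chaperones of the endoplasmic reticulum and unfolded protein response genes, 6 were higher and 0 lower, with a median of 0.54. Among all genes 4.29% were higher and 3.05% lower. P4HB, a protein disulfide isomerase, had 146, 147, 167, 217 and 264 units without serum, against 35.9, 38.4, 45.0, 54.5 and 67.5 in log phase. Its difference of 1.94 ± 0.05 (SD over 5 fractions) was nearly constant across the block. The other higher members were the lectin chaperones CALR (1.66) and CANX (1.35), the disulfide isomerases PDIA6 (1.64) and PDIA3 (1.58), and CRELD2 (1.31). Among 30 messages for insertion and glycosylation at the endoplasmic reticulum, 5 were higher and 0 lower: DDOST (1.51) and RPN1 (1.08) of the oligosaccharyl transferase, SSR2 (1.32) and SSR4 (1.02) of the translocon-associated complex, and the cargo receptor TMED9 (1.05).

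Among 40 subunits of respiratory complexes II to V, 5 were higher and 0 lower: ATP5A1 (1.69) and ATP5B (1.45) of the ATP synthase head, and UQCRC2 (1.59), UQCRC1 (1.44) and CYC1 (1.13) of complex III. Complex I had 2 of 38, NDUFA10 (1.43) and NDUFV1 (1.07), which is near the 4.29% higher among all genes. A mean difference above 0 was found for 34 of the 38 complex I mRNAs, compared with 2874 of 6126 genes in all. Mitochondrial ribosomal proteins, by contrast, had 0 of 78 past the rule in either direction, against 4.29% higher and 3.05% lower among all genes. Their median was 0.03.

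ATF4 target genes of amino acid metabolism had 4 of 16 higher and 0 lower, against 4.29% higher and 3.05% lower among all genes. Their median was 0.46. The higher ones were PHGDH, the mitochondrial serine hydroxymethyltransferase SHMT2 (1.88), the stress-induced regulator NUPR1 (1.43) and asparagine synthetase ASNS (1.42). A mean difference below 0 was found for 5 of the 16. PSAT1, the most abundant member, was also the lowest at -0.77, running from -1.50 in fraction 13 to 0.46 in fraction 17. ATF4 itself, whose translation is held back by upstream open reading frames, had 2003, 1579, 1096, 869 and 646 units without serum, against 1961, 1408, 874, 591 and 390 in log phase, a difference of 0.36 that was below the size rule. Of 23 mRNAs for cytosolic tRNA synthetases and scaffold proteins of their complex, 3 were higher, SARS (1.33), QARS (1.10) and CARS (1.07), and 0 lower. The TRiC chaperonin list had the highest median of the 31 lists with at least 5 members compared, 0.62 over 8 subunits, with CCT3 (1.77) past the rule. Glycolysis followed at 0.56 over 14 enzymes, and GAPDH was its only member past the rule.

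**Figure D3:**
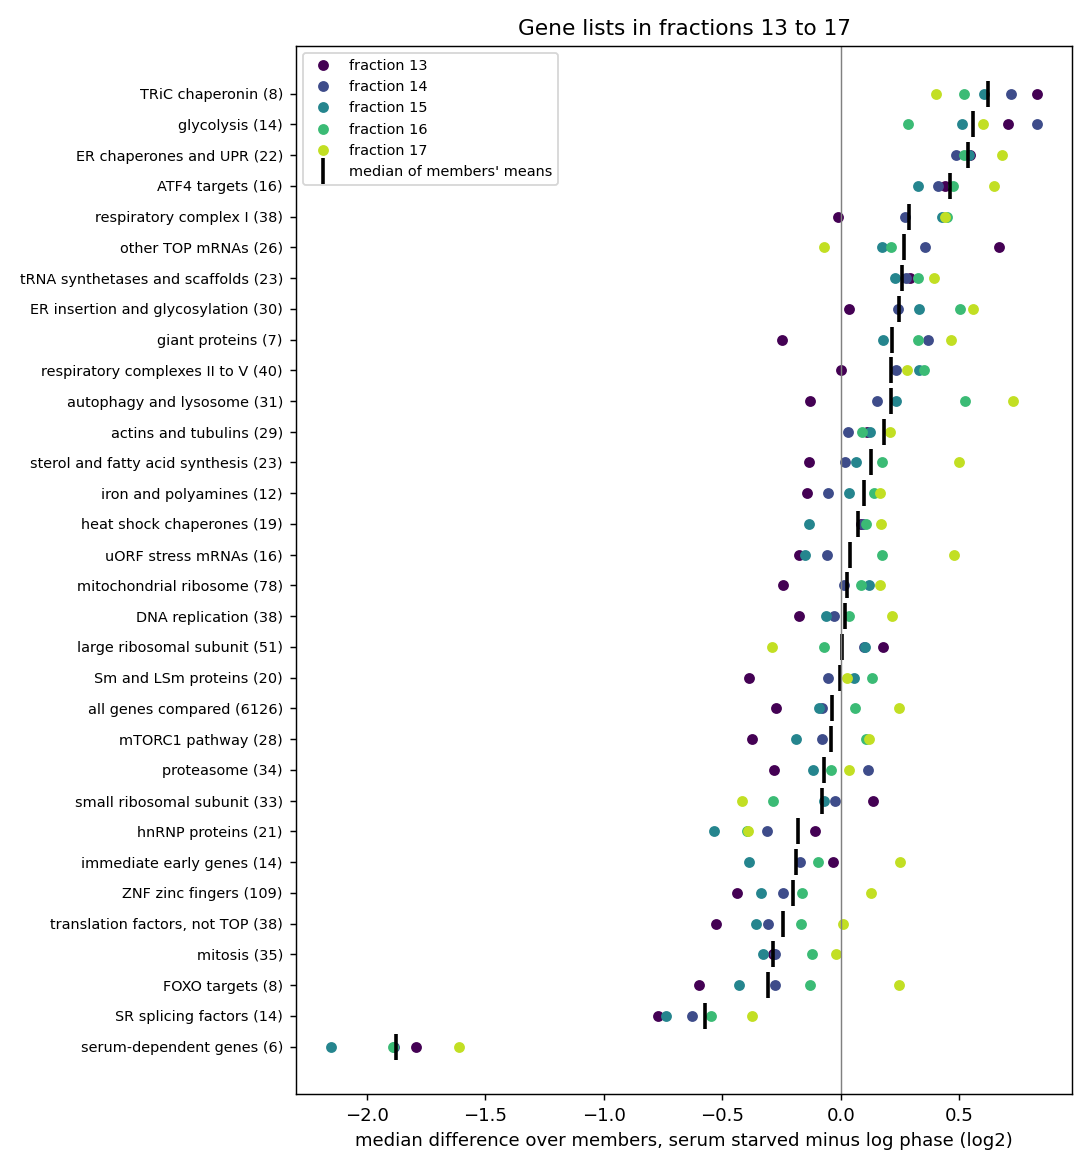
Median difference over the members of each gene list in each fraction (coloured points, log2, serum starved minus log phase) and the median of the members' means over the 5 fractions (black bars), with the number of genes compared in brackets. The serum-dependent list stands at -1.88, the SR splicing factors at -0.57 and the TRiC chaperonin at 0.62, while all genes compared stand at -0.04. The ribosomal and TOP lists run from higher in fraction 13 to lower in fraction 17. The lists were chosen with earlier results of these data known.

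The genes furthest below log phase were ID1 and ID3, inhibitors of differentiation induced by bone morphogenetic proteins. The 10 lowest differences with a mean of 20 units or more belonged to ID1 (-3.45), ID3 (-2.42), HNRNPD (-2.10), CHORDC1 (-1.93), MAP2K1 (-1.91), KCTD12 (-1.85), SHB (-1.79), HNRNPAB (-1.75), PPP2CA (-1.73) and RAB14 (-1.67). ID1 had 4.34, 6.30, 8.50, 9.89 and 15.1 units without serum, against 54.1, 87.8, 108, 134 and 140.4 in log phase, a 10.9-fold lower share. ID3 had 41.2, 52.1, 56.9, 66.5 and 82.8 units without serum, against 301, 324, 309, 304 and 340.2 in log phase. Neither gene's ranges came near each other.

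Against 3.05% lower and 4.29% higher among all genes, 4 of the 6 serum-dependent mRNAs compared were lower and 0 higher, with a median of -1.88. The list was chosen with earlier results of these data known, so its counts describe the members and are no independent support. Beside ID1 and ID3 these were CYR61 (-1.96), a YAP target, and SHB (-1.79), an adaptor protein. ID2 (-0.39) and ID4 (-0.38), the other members of the ID family, kept much closer to log phase. ID4 had 22.8, 39.7, 53.9, 89.6 and 123 units without serum, against 31.8, 61.9, 74.1, 115 and 122 in log phase, and so met log phase in fraction 17. Of 14 immediate early genes compared, 9 had a mean difference below 0 and the median was -0.19. By the size rule 0 were lower and 2 higher, JUND (1.30) and BTG1 (1.10), and FOS and EGR1 were under the filter on low values, at 4.56 units or less in every fraction of both gradients.

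Of 21 hnRNP mRNAs, which encode nuclear RNA-binding proteins, 7 were lower and 0 higher, against 3.05% lower among all genes: HNRNPD, HNRNPAB, HNRNPR (-1.50), HNRNPK (-1.40), HNRNPA3 (-1.19), HNRNPH3 (-1.13) and HNRNPF (-1.04). HNRNPD, also known as AUF1, which binds AU-rich elements, had 56.2, 83.3, 107, 191 and 261 units without serum, against 208, 403, 579, 836 and 929 in log phase. Each value was below the log phase value of the same number, but fraction 17 without serum overlapped the log phase range. Of 14 SR splicing factors, SRSF7 (-1.17), SRSF11 (-1.08) and TRA2B (-1.05) were lower and 0 higher, and the list median was -0.57. The Sm and LSm proteins, also of the splicing machinery, had 0 of 20 lower. HNRNPA1, which is in both the hnRNP and the TOP list, stood at 0.00 with the tilt of the TOP class.

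Of 35 mitotic mRNAs, CCNA2 (-1.64), CDK1 (-1.57) and NUSAP1 (-1.18) were lower and 0 higher, against 3.05% lower and 4.29% higher among all genes, and the list median was -0.28. CCNA2, the S phase and G2 cyclin, had 15.6, 23.6, 30.5, 46.5 and 45.9 units without serum, against 48.5, 89.3, 102, 139 and 128 in log phase. Replication genes and proteasome subunits passed the rule about as often as all genes. Of 38 replication genes, PCNA (-1.10), the sliding clamp, was lower and CDT1 (1.60), a licensing factor, was higher, and of 34 proteasome subunits PSMD7 (-1.35) and PSMA4 (-1.08) were lower and PSMD4 (1.20) was higher. Initiation, release and recycling factors outside the TOP class had 4 higher and 4 lower among 38, and the higher ones were the eIF3 subunits EIF3CL, EIF3C, EIF3D (1.50) and EIF3I (1.27). The lower ones were EIF4A3 (-1.18), a helicase of the exon junction complex, the release factor ETF1 (-1.08), EIF2B3 (-1.08) and EIF3J (-1.06).

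Several lists, some of which bear on growth signalling, had no member past the size rule in either direction. These were 28 mRNAs of the mTORC1 pathway, with a median of -0.04, 16 stress mRNAs with upstream open reading frames (0.04), 20 Sm and LSm proteins of the spliceosome (0.00), 12 genes of iron and polyamine metabolism (0.10) and 7 giant proteins (0.22). At the shares of all genes, 4.29% higher and 3.05% lower, lists this short would hold few such members or none. EIF4EBP1, a translation repressor that mTORC1 phosphorylates, was the highest of the mTORC1 list, with 783, 971, 901, 854 and 816 units without serum, against 619, 701, 578, 507 and 434 in log phase. Its difference of 0.62 ± 0.22 (SD over 5 fractions) stayed under the rule although its ranges did not overlap. LARP1, which binds TOP tracts, differed by 0.23, and MTOR itself was under the filter on low values. DDIT3, a stress transcription factor, had 35.9, 20.6, 17.8, 11.9 and 8.07 units without serum, against 17.2, 11.0, 7.94, 5.57 and 3.95 in log phase, and its 0.96 ± 0.10 (SD over 5 fractions) fell just short of the rule. The near-copies of mitochondrial ribosomal RNA MTRNR2L8 (1.07) and MTRNR2L1 (1.06) were both higher, but their reads can come from one another or from mitochondria.

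Other parts of the same gradients place these values. The median difference of all genes was -0.94 in fractions 3 to 7, -0.53 in fractions 8 to 12, -0.04 in fractions 13 to 17 and finally 0.23 in the last block, fractions 18 to 22. Large-subunit mRNAs ran the other way, at 0.56, 0.28, 0.01 and -0.39, as did the small subunit at 0.48, 0.17, -0.08 and -0.42. Fractions 13 to 17 are therefore where the ribosomal mRNAs and the median gene crossed. Shares of a fixed sum are tied, so that where these abundant messages lose share, others gain it. The opposite directions are thus partly set by the rescaling. The gap between the ribosomal lists and the median gene within a block hardly depends on it. The other TOP mRNAs stood at 0.28, 1.17, 0.27 and -0.23, highest in fractions 8 to 12. EEF1A1 had a difference of 0.49 in fractions 3 to 7, 1.78 in fractions 8 to 12, 0.63 in fractions 13 to 17 and -1.18 in fractions 18 to 22.

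The genes called higher and lower in fractions 13 to 17 behaved unlike each other outside them. Of the 263 higher genes, 245 had a mean difference above 0 in fractions 18 to 22 and 221 in fractions 8 to 12, with medians of 0.90 and 0.52. In fractions 3 to 7, 184 of the 263 were below 0, with a median of -0.30, as were 186 of the 187 lower genes and 5753 of all 6126. Of the 187 lower genes, 182 had a mean difference below 0 in fractions 8 to 12, but 102 had one above 0 in fractions 18 to 22, where their median was 0.04. Over all genes compared, 1145 of 6126 were above 0 in fractions 8 to 12 and 4326 in fractions 18 to 22. Among the 10 lowest genes, ID1 (-2.66), ID3 (-1.94), SHB (-1.05), KCTD12 (-0.84) and CHORDC1 (-0.59) were also below 0 in fractions 18 to 22. HNRNPD (0.35), HNRNPAB (0.41), MAP2K1 (0.39), PPP2CA (0.34) and RAB14 (0.15) were above 0 there. The median gene itself stood at 0.23 in those fractions, above RAB14 and a little below the others. Among the highest, GRN kept a difference of 1.78 in fractions 18 to 22, while that of GAPDH was 0.02.

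**Figure D4:**
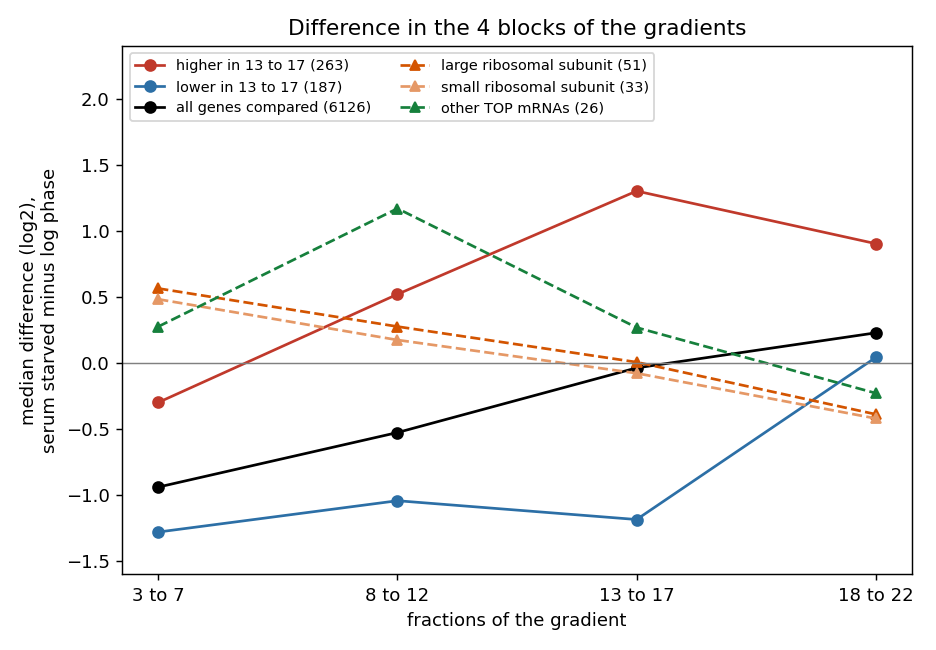
Median difference (log2, serum starved minus log phase) in 4 blocks of 5 fractions for the genes called higher or lower in fractions 13 to 17, all genes compared, and the ribosomal and TOP lists. The 187 lower genes are at -1.19 in fractions 13 to 17 and at 0.04 in fractions 18 to 22, and the large-subunit list passes from 0.56 in fractions 3 to 7 to -0.39 in fractions 18 to 22.

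The series also holds a gradient of cells kept for 1 h without amino acids in medium that contained serum, compared here with the same log phase fractions. In fractions 13 to 17 ID1 differed from log phase by -3.45 without serum and by 0.02 without amino acids, ID3 by -2.42 without serum and by -0.32 without amino acids, and CYR61 by -1.96 without serum and by 0.61 without amino acids. HNRNPD differed by -2.10 without serum and by -2.14 without amino acids, GRN by 2.58 without serum and by 2.90 without amino acids, and GAPDH by 2.45 without serum and by 2.99 without amino acids. These comparisons share their 5 log phase fractions, so that a value peculiar to the log phase gradient enters both.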

How the data were processed

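HEK293 gradient fractions 3 to 22 of 3 conditions gave 60 columns of 1 deposited table. The authors' deposited signal, 1 value per gene symbol, was made with kallisto 0.44.0 and sleuth 0.29.0 on hg38, per the submitters' processing notes. The columns do not sum to 1000000, so a further scale was applied, which no source used here gives, and library depth is unknown. No count interval was therefore attached, and the 3 lysates were not analysed here.

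The 29 ERCC rows and 1 luciferase row were dropped and each column was rescaled. Differences used log2(value + 1), and the size rule and the slope were as the report states. Named genes were the 10 highest and 10 lowest past the rule with a mean of 20 or more, the most abundant and most extreme member of each list, and a set of fixed genes. Other genes named were chosen after their values were seen. The fractions to compare, the gene lists, rules and named genes were chosen with earlier results of these data known. Of 11074 symbols, 10615 were current in the RefSeq table of GRCh38.p14 and 444 matched through a synonym. Protein length classes had been planned and were not run, since no protein table was used here. Python 3 with pandas and numpy was used. Some items are not reported here.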

Additional observations from a re-analysis of the deposited data

Results flagged for a closer look

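The luciferase spike-in row, which was left out of the rescaling, took a larger share of the summed gene signal without serum than in log phase in all 5 fractions. The ratio of the shares lay between 1.56 and 2.20. The summed ERCC rows did so only in fractions 14 to 16. They stood at 0.0677% without serum against 0.0740% in log phase in fraction 13. In fraction 17 they stood at 0.0393% without serum against 0.0418% in log phase. Keeping the luciferase row in the rescaling moved no call among the 96 named genes past the size rule.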

How the results depend on the processing

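No paired analysis was possible because there was 1 gradient per condition and no test was made. The higher and lower counts of 263 and 187, out of 6126 genes, were 132 and 79 with a pseudocount of 10. Among the 2313 genes with a mean of 50 or more they were 106 and 85, from a smaller number of genes. They were 767 and 723 with a size rule of 0.58, 0 and 5747 on the deposited scale, and 119 and 548 with equal spike-in sums. With serum-starved fractions 14 to 17 set against log phase fractions 13 to 16, 425 genes were higher, and with 13 to 16 against 14 to 17, 411 were lower. Separate ranges left 110 lower genes. Leaving out each fraction in turn gave 248 to 295 higher and 161 to 290 lower genes. The median gene lay at -1.82 on the deposited scale and at -0.37 with equal spike-in sums. On the deposited scale 44 of 95 named genes past the rule had the opposite sign, between -0.83 and -0.09, all of them called higher here. Relative to that scale's own median gene the counts were 238 and 146, and with equal spike-in sums they were 266 and 157. The counts of slopes that fell and rose, 289 and 246, were 163 and 125 with a pseudocount of 10. They were 467 and 412 among all 11074 genes with no filter, and 167 and 113 among the 2313 with a mean of 50 or more. With each fraction left out they were 289 to 397 and 246 to 363. The lower ends came from leaving out fraction 15, which cannot change a slope. Of the 289 and 246 genes, 205 and 195 stayed past the rule without fraction 13, and 271 and 234 without fraction 14. Without fraction 16, 279 and 228 stayed, and without fraction 17, 242 and 161. Library depths are unknown here, and with them what depth limits.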
